A study of Mus musculus with 8 samples.

Results

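Ribosomal protein genes were followed across 4 sorted cell groups of the mouse embryo. They were taken from the array annotation by name (Rpl or Rps with a number, together with Rplp0, Rplp1, Rplp2 and Rpsa), which gave 84 genes with 176 probes among 31889 genes on the array. The brightest probe stood for each gene, and 55 genes had several probes. Genes whose probe exceeded background on the 2 arrays of any group were tested, which left 83 of the 84 genes among 19537 tested genes: 32 of the small subunit, 48 of the large subunit and 3 of the ribosomal stalk. Of the 83, 82 were well above background on all 8 arrays, Rpl10l was so on 4, and Rpl3l, which was not tested, was so on none. Embryos at E10.5 came from crosses of F1 females (C57BL/6 and 129S1/SVImJ) with males that carry the Ly6a-GFP transgene, in which Ly6a, the gene for stem cell antigen Sca-1, directs green fluorescent protein (GFP). The labels give the sex as male. From 100 pooled embryos, of which the umbilical and vitelline arteries and the aorta-gonad-mesonephros region were taken, cells positive for CD31, VE-cadherin and ESAM were divided by Kit into hematopoietic cluster cells (Kit+) and endothelial cells (Kit-), and each class by GFP. The groups were 30000 GFP+ cluster cells, 130000 GFP- cluster cells, 70000 GFP+ endothelial cells and 300000 GFP- endothelial cells. Each group's RNA was divided, and the 2 fractions were amplified and hybridised to 1-colour arrays, so the replicates of a group are technical and the p-values measure the spread of that handling alone.

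A ribosome is built from ribosomal RNA and a fixed set of ribosomal proteins, each usually made from a single gene. The small subunit reads the messenger RNA, the large subunit joins amino acids, and the stalk proteins of the large subunit recruit elongation factors. The messages of ribosomal protein genes begin with a run of pyrimidines, the 5′ terminal oligopyrimidine tract, through which the kinase mTOR controls their translation. Loss of 1 copy of several of these genes, RPS19 most often, causes Diamond-Blackfan anaemia in people, a failure of red cell production, and in mouse the proteins Rpl5 and Rpl11 bind Mdm2 when ribosome assembly fails and so raise p53. A few ribosomal proteins have a second gene, a paralog, that is used in particular tissues.

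The probes of Rps19, Rpl26l1 and Rpl10l are shown because Rps19 is the anaemia gene, Rpl26l1 was among the largest changes and could be mistaken for its main copy, and Rpl10l was the tested gene not well above background on every array. Probe positions follow the array annotation (mm9). Capitals mark the longest run that a paralog's probe shares with any probe of its main copy, Rpl26 for Rpl26l1 and Rpl10 for Rpl10l. The Rps19 probe lies at chr7:25670166-25670225, that of Rpl26l1 at chr16:17712067-17712126 and that of Rpl10l at chr12:67384868-67384927.
Rps19: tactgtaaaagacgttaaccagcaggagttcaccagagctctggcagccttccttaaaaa
Rpl26l1: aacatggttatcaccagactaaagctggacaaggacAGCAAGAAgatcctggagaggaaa
Rpl10l: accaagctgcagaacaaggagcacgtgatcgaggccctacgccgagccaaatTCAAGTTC
The shared run was 8 of 60 bases for Rpl26l1, Rpl10l and Rpl22l1 (the last on the opposite strand), 7 for Rpl39l, Rpl7l1 and Rps4y2, and 6 for Rps27l and Rpl3l. Only the main copy's probes were compared, which can lie elsewhere on its message. A short run therefore does not show that a paralog's probe is distinct from the main copy's message, and this was not tested. Rpl26l1 and Rps4y2 are older names: in RefSeq the first is the pseudogene Rpl26-ps4 and the second the transcribed pseudogene Rps4l. Ribosomal protein genes have many processed copies in the genome, 61 of the 84 brightest probes list more than 1 RefSeq accession, and the probes of Rpl12 and Rps29 lie on another chromosome than their genes, so signal from near-identical copies cannot be told apart from that of the named gene.

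The starts of 4 genes that recur in the results are shown because the tract that marks ribosomal protein messages lies there. Each window runs from 40 bases before to 20 bases after a RefSeq start on GRCm38.p6, and capitals mark the pyrimidine runs CTTTC and CTTCC and the run CTCTT where found on the sense strand from 10 bases before to 20 after the start. The Rpl14 window is chr9:120571477-120571536 on the plus strand, that of Rps15a chr7:118116128-118116187 on the minus strand, that of Rpl22l1 chr3:28805468-28805527 on the plus strand and that of Rps18 chr17:33955646-33955705 on the minus strand.
Rpl14: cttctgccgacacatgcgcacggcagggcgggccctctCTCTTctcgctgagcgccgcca
Rps15a: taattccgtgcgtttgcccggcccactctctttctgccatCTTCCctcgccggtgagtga
Rpl22l1: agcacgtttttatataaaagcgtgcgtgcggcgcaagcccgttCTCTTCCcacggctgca
Rps18: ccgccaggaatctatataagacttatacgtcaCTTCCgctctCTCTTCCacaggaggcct
RefSeq held start windows, of 250 bases before to 50 after the start, for 62 of the 84 genes (74 windows) and for 27025 genes in all. CTTTC lay near the start in 15 of the 62 genes (24.2%), against 4.4% of all genes. CTTCC did so in 12 (19.4%, against 7.5%) and CTCTT in 13 (21.0%, against 4.6%), and these letters can overlap one another, as in CTCTTCC of Rpl22l1. Over the whole window on both strands, CCGGAAG, a motif of ETS-type factors, occurred in 26 genes (41.9%, against 9.9%) and TATAAA in 7 (11.3%, against 15.7%). A match is a string of letters in this window and was not set against binding or expression.

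Ribosomal protein messages gave bright signals on every array, and their level was lowest in GFP+ endothelial cells and highest in GFP- endothelial cells when arrays were scaled by their 75th percentile. Levels here are log2 processed signal minus the array's 75th percentile over all probes, so 0 is the 75th percentile itself. The median of the 83 genes was 7.09 and 7.16 for GFP+ cluster cells, 7.27 and 7.30 for GFP- cluster cells, 6.93 and 7.05 for GFP+ endothelial cells and 7.42 and 7.43 in GFP- endothelial cells. No group's pair overlapped another's. After quantile normalization, which gives every array the same distribution, the 8 medians lay between 7.91 and 7.97 above the array's median of tested genes. The GFP- endothelial arrays, at 7.97 and 7.96, still lay above all others, and the other groups overlapped. Probes of these genes held between 11.5% (a GFP+ endothelial array) and 12.6% of the summed signal of an array. The 99th percentile of all probes moved in the same order as the genes' median: it lay 6.70 and 6.70 above the 75th for GFP+ cluster cells, 6.86 and 6.85 for GFP- cluster cells, 6.55 and 6.65 for GFP+ endothelial cells and 7.01 and 7.003 for GFP- endothelial cells (log2). Between GFP+ and GFP- endothelial cells the 99th percentile differed by -0.40 and the genes' median level by -0.43, and in cluster cells by -0.15 and -0.16. The genes' own probes are among those that set the 99th percentile, and their median lay above it on every array. The shifts of the percentile and of the genes are therefore not independent. Percentiles between the 75th and 99th, also set against the 75th (log2), did not keep the order of the 99th: GFP+ cluster cells were lowest. Nearer the 99th, group means were 3.96 and 4.07 in GFP+ and GFP- cluster cells, and 3.99 and 4.22 in GFP+ and GFP- endothelial cells. Nearer the 75th they were 2.54 and 2.59, and 2.58 and 2.68, for the same groups. The part of the 99th percentile's shift in the genes' values was not tested, and each result is given under both scalings. The samples are bulk RNA, so fewer cells of a type and less RNA per cell cannot be told apart.

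**Figure D1:**
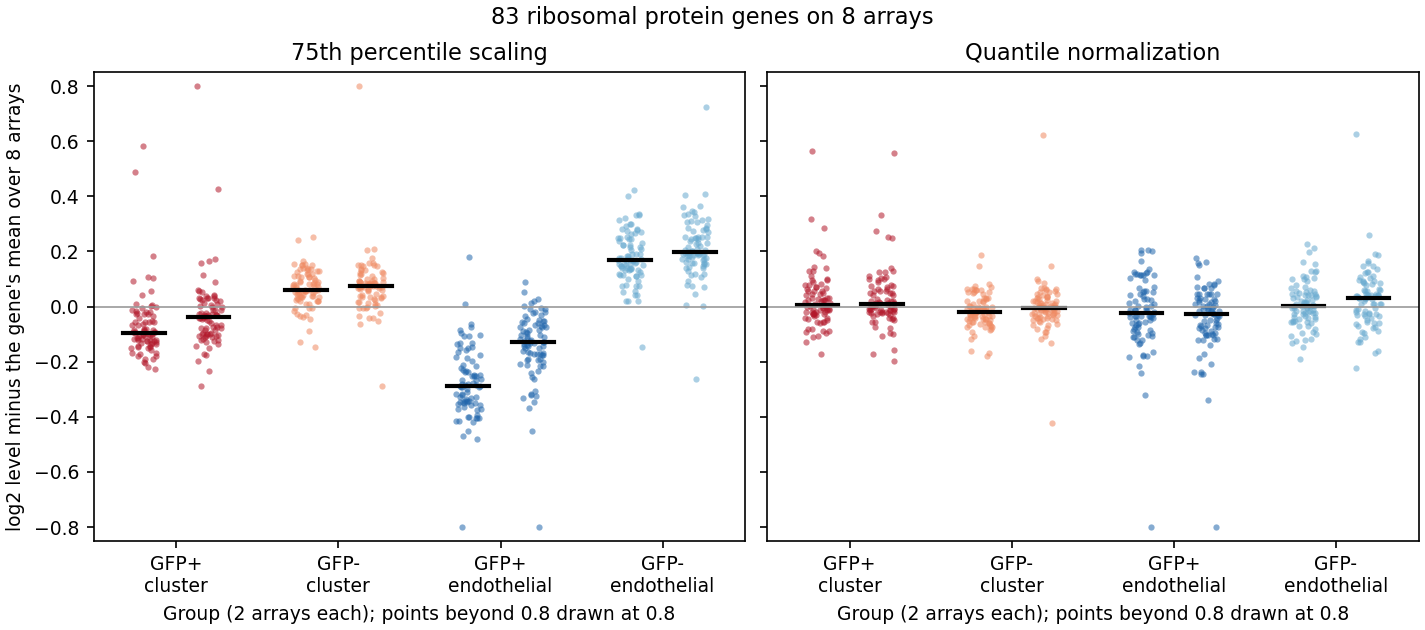
Level of each of the 83 ribosomal protein genes on each array minus its own mean over the 8 arrays (log2), scaled by the 75th percentile in one panel and by quantile normalization in the other; points are genes, bars are medians, and points beyond 0.8 in either direction are drawn at 0.8. The genes sit lowest in GFP+ endothelial cells and highest in GFP- endothelial cells under the 75th percentile, and around 0 in all groups after quantile normalization.

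In endothelial cells, 70 of the 83 ribosomal protein genes were lower in GFP+ than in GFP- cells and 0 were higher under the 75th percentile, where 33.3% of all tested genes were lower and 18.2% higher (limma, Benjamini-Hochberg adjusted p under 0.05 over all genes). At an unadjusted p under 0.05, 75 were lower and 0 higher. The median difference was -0.39 (log2, GFP+ minus GFP-) against -0.13 over all genes, with an interquartile range of 0.17 against 0.54. The ribosomal protein genes are brighter than most, and their range was not set against that of equally bright genes. Both GFP+ arrays lay below both GFP- arrays for 80 of 83 genes, against 52.1% of all genes. After quantile normalization 14 were lower and 2 higher, where 21.2% of all genes were lower and 21.8% higher, the median was -0.017 against -0.026, and 34 of the 83 genes turned sign. Of the 70 lower genes, 14 were lower under both scalings and 1 was called in opposite directions. The 14 include Rpl10l, which passed the filter through the GFP- endothelial arrays alone.

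The fall under the 75th percentile spanned both subunits: 27 of 32 small subunit genes (median -0.37; 5 lower after quantile normalization), 41 of 48 large subunit genes (median -0.41; 8 lower and 2 higher) and 2 of 3 stalk genes. Within slides, the median difference was -0.45 on the slide of replicate 1 and -0.33 on that of replicate 2. Leaving out 1 array gave 45 to 73 lower genes. The lowest count was without GFP- endothelial replicate 1.

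Markers of cell types were counted in the same comparisons. All 10 endothelial markers were well above background on every array, with summed signals of 250 to 364 times the 75th percentile. Of the 10, 6 were lower in GFP+ than in GFP- cluster cells (quantile 4), and 2 were lower and 3 higher in GFP+ than in GFP- endothelial cells (quantile 6 higher). Of all genes, 20.9% were lower in cluster cells (quantile 16.7%). In endothelial cells 33.3% of all genes were lower and 18.2% higher (quantile 21.2% and 21.8%). Signal of the 16 erythroid markers (red cell messages) summed to 148 and 149 in GFP+ and 1137 and 1121 in GFP- cluster cells, and to 161 and 169 in GFP+ and 743 and 766 in GFP- endothelial cells (multiples of the 75th percentile). Of 15 tested erythroid markers, 14 were lower in GFP+ than in GFP- cells in each class, against 20.9% of all genes in cluster and 33.3% in endothelial cells. On an array, 10 to 15 of the 16 were well above background. The 12 macrophage markers summed to 27.2 and 27.4 in GFP+ and 9.78 and 10.06 in GFP- cluster cells, and to 10.4 and 10.9 in GFP+ and 4.66 and 4.76 in GFP- endothelial cells. The 10 general blood markers summed to 38.8 and 37.7 in GFP+ and 9.44 and 9.73 in GFP- cluster cells, and to 5.71 and 5.65 in GFP+ and 3.17 and 3.08 in GFP- endothelial cells. All 10 were higher in GFP+ cluster than in GFP+ endothelial cells, with a median log2 difference of 2.90 (quantile 2.83), where 26.1% of all genes were higher (quantile 21.5%). The 10 mesenchyme markers summed to 30.3 and 31.0 in GFP+ and 35.5 and 35.9 in GFP- cluster cells, and to 35.1 and 35.4 in GFP+ and 39.0 and 38.1 in GFP- endothelial cells. Of these, 6 were lower and 2 higher in GFP+ than in GFP- cluster cells (quantile 6 and 2), where 20.9% of all genes were lower and 11.8% higher. In endothelial cells by GFP, 5 were lower and 2 higher (quantile 4 and 2), where 33.3% of all genes were lower and 18.2% higher. The part of these cells in the ribosomal protein values was not tested.

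Among the 14 genes lower under both scalings, Rpl14 of the large subunit read 7.29 and 7.45 in GFP+ and 8.09 and 8.17 in GFP- endothelial cells. Its difference was -0.76 ± 0.067 (SE; adjusted p = 0.000714, limma) and -0.42 after quantile normalization (adjusted p = 0.00362). Rps15a, a small subunit protein, read 6.32 and 6.37 in GFP+ and 7.11 and 7.10 in GFP- endothelial cells, a difference of -0.76 ± 0.064 (adjusted p = 0.000626; quantile -0.37, adjusted p = 0.00772). In both genes every GFP+ array lay below every GFP- array. The pseudogene probe Rpl26l1 read 4.51 and 4.65 in GFP+ and 5.36 and 5.32 in GFP- endothelial cells, and differed by -0.76 ± 0.060 (adjusted p = 0.000542; quantile -0.44). Its main copy Rpl26, a large subunit protein at the mouth of the exit tunnel, differed by -0.57 ± 0.053 (adjusted p = 0.00084; quantile -0.18). Rpl30 (-0.65, quantile -0.27), Rpl22l1 (-0.61, quantile -0.27), Rpl23a (-0.59, quantile -0.21), Rps4x (-0.58, quantile -0.24), Rps18 (-0.53, quantile -0.16) and Rps27l (-0.52, quantile -0.19) fell under both scalings as well.

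Rpl13, a large subunit protein, was the gene called in opposite directions: it differed by -0.19 ± 0.058 under the 75th percentile (adjusted p = 0.0407) and by 0.19 after quantile normalization (adjusted p = 0.0481). Its levels were 7.24 and 7.35 in GFP+ and 7.45 and 7.51 in GFP- endothelial cells on the first scale. Rpl3, a protein near the peptidyl transferase centre, was higher by 0.33 after quantile normalization alone (adjusted p = 0.0189), against -0.073 under the 75th percentile (adjusted p = 0.5), at 6.75 and 6.87 in GFP+ and 6.84 and 6.93 in GFP- endothelial cells.

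**Figure D2:**
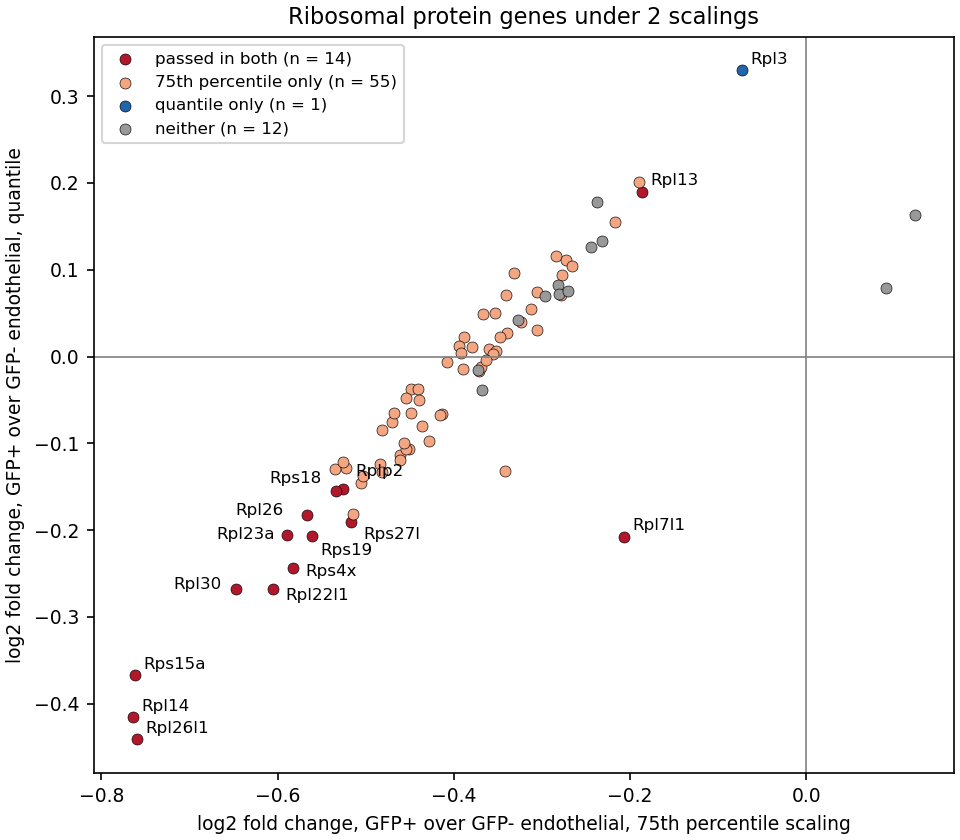
Log2 difference of each ribosomal protein gene between GFP+ and GFP- endothelial cells after quantile normalization (vertical axis) against that under the 75th percentile (horizontal axis); 1 point is 1 gene, and Rpl10l, for which only a bound can be given, is left out. The 14 points that passed under both scalings include Rpl13, which did so in opposite directions. The points lie along a line shifted down the horizontal axis: the median is -0.39 on it and -0.017 on the vertical axis.

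To see which genes moved against the rest of the group, each array was also centred on the median of the 83 genes, a setting chosen after the data were seen. On this scale 9 genes were higher in GFP+ endothelial cells than in GFP- ones relative to the group and 5 were lower, where 51.4% of all genes were higher and 6.46% lower. The 9 were Rpl39l (0.55), Rpl21 (0.52), Rpl3 (0.36), Rpl13 (0.25), Rpl6 (0.24), Rpl7l1 (0.22), Rps6 (0.21), Rpl15 (0.19) and Rps9 (0.17). The probes of Rpl39l, Rpl21 and Rpl7l1 were far dimmer than the group, at mean levels of -2.94, -1.66 and -0.54. Before this centring Rpl21 differed by 0.090 under the 75th percentile (adjusted p = 0.334, limma) and by 0.079 after quantile normalization. The part of probe brightness in these values was not tested. Rps6 is the small subunit protein that S6 kinase phosphorylates. The 5 that fell below the group were Rpl10l, Rpl14 (-0.33), Rps15a (-0.33), Rpl26l1 (-0.33) and Rpl30 (-0.22). For Rpl10l no size is given, since it was well above background on neither GFP+ endothelial array. In 3 of the 53 tested genes with several probes, Rpl12, Rpl21 and Rpl6, another probe had the opposite sign in this comparison under the 75th percentile. The same held for 7 of the 53 by GFP in cluster cells, Rps15 among them. Between the classes of GFP+ cells it held for 20, Rpl21, Rps25 and Rps15a among them. It held for 7 between the classes of GFP- cells, and for 6 in the difference between classes, Rpl7 and Rps15a among them.

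In hematopoietic cluster cells, 9 of the 83 genes were lower in GFP+ than in GFP- cells and 1 was higher under the 75th percentile, where 20.9% of all genes were lower and 11.8% higher. The median was -0.14 against -0.076 over all genes, with an interquartile range of 0.084 against 0.34. Both GFP+ arrays lay below both GFP- arrays for 68 of 83 genes, against 43.5% of all genes. After quantile normalization 0 were lower and 2 higher (limma; at an unadjusted p under 0.05, 0 lower and 5 higher), where 16.7% of all genes were lower and 14% higher, the median was 0.019, and 44 genes turned sign. The 9 lower calls became fewer whichever array was left out, also one outside this comparison, and the median then lay between -0.17 and -0.11. The calls are therefore not stable. A fit with fewer arrays also has less power, so a lost call does not show that 1 array carried it.

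The higher gene was Rpl39l, a paralog of the exit tunnel protein Rpl39 that is known from testis in mouse. It read -2.36 and -2.52 in GFP+ and -3.09 and -3.23 in GFP- cluster cells, and -2.93 and -3.12 in GFP+ and -3.09 and -3.21 in GFP- endothelial cells. Both GFP+ cluster arrays lay above the other 6. The difference in cluster cells was 0.72 ± 0.098 (adjusted p = 0.0037, limma) and 0.74 after quantile normalization (adjusted p = 0.0109). Rps15, a small subunit protein, was the second higher gene after quantile normalization (0.30, adjusted p = 0.0131), against 0.17 under the 75th percentile (adjusted p = 0.113). Of the genes lower under the 75th percentile, Rps24 read 7.94 and 7.89 in GFP+ and 8.26 and 8.18 in GFP- cluster cells (-0.30 ± 0.063, adjusted p = 0.0166; quantile -0.14, adjusted p = 0.331). That size rests on the brightest probe. The other Rps24 probes, at mean levels of 8.02 and 5.74, differed by -0.094 and -0.042 under the 75th percentile. Rpl14 read 7.65 and 7.64 in GFP+ and 7.93 and 7.92 in GFP- cluster cells (-0.28 ± 0.067, adjusted p = 0.0258; quantile -0.11, adjusted p = 0.231). The others named were Rpl23a (-0.22), Rpl30 (-0.22), Rps18 (-0.23) and Rpl26l1 (-0.21), and with the slide as a block the last pair lost their calls (adjusted p = 0.0556 and 0.0577).

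Among GFP+ cells, 19 of the 83 genes were higher in cluster than in endothelial cells and 0 were lower under the 75th percentile, where 26.1% of all genes were higher and 24.2% lower (limma; at an unadjusted p under 0.05, 25 higher and 1 lower). The share of members called higher was below that of all genes. The median was 0.14 against 0.033, and both cluster arrays lay above both endothelial arrays for 48 of 83 genes, against 40.9% of all genes. After quantile normalization 11 were higher and 1 lower, where 21.5% of all genes were higher and 26.7% lower, and the median was 0.045. The 11 were all among the 19. Leaving out 1 array gave 7 to 30 higher genes: 30 without GFP+ endothelial replicate 2, 7 without GFP+ endothelial replicate 1, 8 and 9 without GFP+ cluster replicates 1 and 2, and 11 with GFP- cluster replicate 1 or 2 left out. The median was 0.20 on the slide of replicate 1 and 0.073 on that of replicate 2.

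Rpl4, a large subunit protein that lines the exit tunnel, read 6.18 and 6.26 in GFP+ cluster cells and 5.67 and 5.90 in GFP+ endothelial cells, a difference of 0.44 ± 0.092 (adjusted p = 0.0112; quantile 0.39, adjusted p = 0.00959). Rps4x, the X-linked copy of a small subunit protein, read 6.34 and 6.38 in GFP+ cluster and 5.95 and 5.98 in GFP+ endothelial cells (0.39 ± 0.047, adjusted p = 0.00155; quantile 0.33). In both genes every GFP+ cluster array lay above every GFP+ endothelial array. Rps15 (0.32, quantile 0.26) and Rps25 (0.30, quantile 0.19), a small subunit protein that some viral internal entry sites need, were also higher under both scalings, as was Rpl39l (0.59 ± 0.098, adjusted p = 0.00502; quantile 0.44). Rpl21 was the gene lower after quantile normalization (-0.25, adjusted p = 0.026, limma), against -0.19 under the 75th percentile (adjusted p = 0.0748, limma). Its probe was dim for this group, at a mean level of -1.66 over all arrays. The other Rpl21 probe, at -1.82, differed by 0.24 under the 75th percentile, so the direction for the gene depends on the probe.

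Among GFP- cells, 15 of the 83 genes were lower in cluster than in endothelial cells and 0 were higher under the 75th percentile, where 12.4% of all genes were lower and 11.9% higher (limma; at an unadjusted p under 0.05, 25 lower and 0 higher). The median was -0.11 against 0.0042 over all genes, and both cluster arrays lay below both endothelial arrays for 61 of 83 genes, against 34% of all genes. After quantile normalization 1 gene was lower and 0 higher (at an unadjusted p under 0.05, 10 lower and 0 higher), where 9.21% of all genes were lower and 10.4% higher, and the median was -0.027. The 1 gene was Rpl26, at 6.97 and 6.94 in GFP- cluster and 7.27 and 7.28 in GFP- endothelial cells (-0.32 ± 0.053, adjusted p = 0.0131; quantile -0.19, adjusted p = 0.0309). Rps15a read 6.75 and 6.73 in GFP- cluster and 7.11 and 7.10 in GFP- endothelial cells (-0.37 ± 0.064, adjusted p = 0.0142; quantile -0.23, adjusted p = 0.0604). Rps27l (-0.34, quantile -0.16), Rps7 (-0.33, quantile -0.18) and Rpl17 (-0.32, quantile -0.18) were next, and were not called after quantile normalization. The 15 calls fell to 0 without GFP- cluster replicate 1 and to 3 without replicate 2 of that group, and to 5 and 3 without GFP- endothelial replicates 1 and 2.

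The difference by GFP was itself tested between the cell classes, as the GFP+ minus GFP- difference in cluster cells minus that in endothelial cells. It was positive for 30 of the 83 genes and negative for 0 under the 75th percentile, where 15.7% of all genes were positive and 15.5% negative (limma; at an unadjusted p under 0.05, 43 positive and 0 negative). The median was 0.26 against 0.049 over all genes. After quantile normalization 7 were positive and 0 negative (at an unadjusted p under 0.05, 17 and 0), where 12.2% of all genes were positive and 16.2% negative, with a median of 0.064. The 7 were Rps15a, Rpl26l1, Rpl14, Rpl30, Rpl26, Rpl22l1 and Rpl10l, the last of which was well above background on neither GFP+ endothelial array. Rps15a differed by -0.76 with GFP in endothelial cells and by -0.16 in cluster cells, a difference between classes of 0.60 ± 0.090 (adjusted p = 0.00791; quantile 0.37, adjusted p = 0.0346). For Rpl4 the difference between classes was 0.49 ± 0.13 (adjusted p = 0.0381), and 0.28 after quantile normalization (adjusted p = 0.11). Leaving out 1 array gave 11 to 28 positive genes: 11 without GFP- cluster replicate 2 or GFP- endothelial replicate 2, 12 without GFP- cluster replicate 1, 15 without GFP+ endothelial replicate 1, 16 without GFP- endothelial replicate 1 and 17 with GFP+ cluster replicate 1 or 2 left out. The comparisons share arrays with one another, so their counts are not separate evidence.

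Relative to the group's own median, few genes stood apart in these 4 further comparisons. In cluster cells by GFP, 2 were higher, Rpl39l (0.88) and Rps15 (0.33), and 0 lower (limma; at an unadjusted p under 0.05, 4 higher and 0 lower), where 17.1% of all genes were higher and 7.95% lower. Among GFP+ cells, 5 were higher in cluster than in endothelial cells, Rpl10l (a bound only), Rpl39l (0.46), Rpl4 (0.31), Rps4x (0.26) and Rps15 (0.19), and Rpl21 was lower (-0.32), where 17.2% of all genes were higher and 31.2% lower. Among GFP- cells 0 passed (at an unadjusted p under 0.05, 0 higher and 4 lower), where 17.4% of all genes were higher and 2.38% lower. Between the classes' GFP differences the one gene called was Rpl10l, for which no size is given because its probe was well above background on neither GFP+ endothelial array. Of all genes, 5.5% were positive and 30.1% negative on that scale.

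Among 8 genes mutated in Diamond-Blackfan anaemia, 7 were lower in GFP+ than in GFP- endothelial cells under the 75th percentile (median -0.42), a share near that of all ribosomal protein genes (70 of 83, against 33.3% of all genes). After quantile normalization 1 was lower (median -0.052), against 14 of 83 ribosomal protein genes and 21.2% of all genes. Rps19, the gene mutated most often in people, was the one called under both. It read 5.76 and 5.76 in GFP+ and 5.96 and 5.98 in GFP- cluster cells, and 5.65 and 5.71 in GFP+ and 6.23 and 6.26 in GFP- endothelial cells. On this scale the 4 groups did not overlap, and the order from low to high was GFP+ endothelial, GFP+ cluster, GFP- cluster and GFP- endothelial. The endothelial difference was -0.56 ± 0.044 (adjusted p = 0.000519; quantile -0.21, adjusted p = 0.0121). In cluster cells it was -0.20 ± 0.044 (adjusted p = 0.0177; quantile -0.049, adjusted p = 0.443). The difference between classes was 0.36 ± 0.062 (adjusted p = 0.0114), and 0.16 after quantile normalization (adjusted p = 0.102). Among GFP- cells Rps19 was lower in cluster than in endothelial cells (-0.27 ± 0.044, adjusted p = 0.0111; quantile -0.11, adjusted p = 0.13), and among GFP+ cells the difference was 0.082 (adjusted p = 0.167).

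The other anaemia genes of the small subunit differed in endothelial cells by -0.43 for Rps24 (quantile -0.098), -0.32 for Rps7 (quantile 0.040) and -0.31 for Rps26 (quantile 0.055), all called under the 75th percentile and none after quantile normalization. Rps10 was the gene not called (-0.37, adjusted p = 0.054), and passed with the slide as a block (adjusted p = 0.0172). Rpl5 (-0.48, quantile -0.13) and Rpl11 (-0.41, quantile -0.067), which bind 5S ribosomal RNA, and Rpl35a (-0.44, quantile -0.038) were lower under the 75th percentile and not called after quantile normalization. In cluster cells by GFP, 2 of the 8 were lower, Rps24 (by its brightest probe) and Rps19, a share near the 20.9% of all genes. Rpl11 differed there by -0.20 (adjusted p = 0.204, or 0.0489 with the slide as a block). Among GFP+ cells Rpl35a alone was higher in cluster than in endothelial cells (0.20, adjusted p = 0.0382; quantile 0.12, adjusted p = 0.184), where 26.1% of all genes were higher. Among GFP- cells Rps7 and Rps19 were lower, against 15 of 83 ribosomal protein genes and 12.4% of all genes. The difference by GFP differed between the classes for 3, Rps7 (0.38), Rpl35a (0.37) and Rps19, none of which was called after quantile normalization. Of all ribosomal protein genes 30 of 83 were positive there, and of all genes 15.7%.

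The stalk proteins are Rplp0, which anchors the stalk, and its acidic partners Rplp1 and Rplp2. In endothelial cells Rplp2 read 7.49 and 7.69 in GFP+ and 8.11 and 8.12 in GFP- cells (-0.53 ± 0.077, adjusted p = 0.00339; quantile -0.15, adjusted p = 0.0475). Rplp1 differed by -0.35 ± 0.086 (adjusted p = 0.0187) and by 0.0068 after quantile normalization (adjusted p = 0.906). Rplp0 differed by -0.28 ± 0.12 (adjusted p = 0.0961, or 0.0382 with the slide as a block; quantile 0.072). By GFP in cluster cells none of the 3 passed, at -0.18, -0.19 and -0.16 for Rplp0, Rplp1 and Rplp2. Among GFP+ cells Rplp2 was higher in cluster than in endothelial cells (0.26, adjusted p = 0.0379; quantile 0.13, adjusted p = 0.0653), with 0.14 for Rplp0 and 0.063 for Rplp1. Among GFP- cells the differences were 0.035, -0.10 and -0.11 for Rplp0, Rplp1 and Rplp2, and none passed. Rpsa, a small subunit protein first described as a laminin receptor, read 7.74 and 7.55 in GFP+ and 8.02 and 7.89 in GFP- endothelial cells (-0.31 ± 0.086, adjusted p = 0.0291), and its sign turned after quantile normalization (0.074, adjusted p = 0.706). Between the classes of GFP+ cells Rpsa differed by 0.24 (adjusted p = 0.0611, or 0.027 with the slide as a block), by 0.082 between those of GFP- cells, and by -0.15 with GFP in cluster cells.

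Of the 6 tested paralogs, 5 were lower in GFP+ than in GFP- endothelial cells under the 75th percentile and 4 after quantile normalization, where 33.3% and 21.2% of all genes were lower. The exception under both was Rpl39l (0.12, adjusted p = 0.33; quantile 0.16, adjusted p = 0.369). Between the classes' GFP differences 5 of the 6 were positive and 2 after quantile normalization, where 15.7% and 12.2% of all genes were positive. Rpl10l is among the lower and the positive paralogs under both scalings. Rpl10l, an autosomal copy of X-linked Rpl10 known from the male germ line in mouse, read -4.52 and -4.13 in GFP+ and -4.95 and -4.05 in GFP- cluster cells, and -6.51 and -6.80 in GFP+ and -4.82 and -4.29 in GFP- endothelial cells. It was well above background on neither GFP+ endothelial array, on both GFP- endothelial arrays and on 1 of 2 arrays of each cluster group. Rpl10l thus passed the filter through GFP- endothelial cells alone, which favours a call against that group. It was at least 2.08-fold lower in GFP+ than in GFP- endothelial cells (adjusted p = 0.00494, limma). In GFP+ cluster cells, with 1 of 2 arrays well above background, it was at least 2.44-fold higher than in GFP+ endothelial cells (adjusted p = 0.00323, limma). Both p-values include the dim signals, so its calls in the counts of genes are not support for a difference. Each bound sets the brighter group's mean against the higher of the dim signal and the lowest signal that was well above background. Its main copy Rpl10 read 7.76 and 8.14 in GFP+ and 8.14 and 8.25 in GFP- endothelial cells (-0.24 ± 0.13, adjusted p = 0.174; quantile 0.13). Rpl3l, known from muscle, was not well above background anywhere, at levels of -8.24 to -5.65.

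Rpl22l1, whose balance with Rpl22 affects the emergence of blood stem cells in zebrafish, read 6.07 and 6.04 in GFP+ and 6.22 and 6.24 in GFP- cluster cells, and 5.83 and 5.95 in GFP+ and 6.46 and 6.53 in GFP- endothelial cells. The endothelial difference was -0.61 ± 0.059 (adjusted p = 0.000943; quantile -0.27, adjusted p = 0.00748), and that between the classes' GFP differences 0.43 ± 0.083 (adjusted p = 0.0156; quantile 0.24, adjusted p = 0.0436). Rpl22 read 6.88 and 7.02 in GFP+ and 7.27 and 7.40 in GFP- endothelial cells (-0.39 ± 0.072, adjusted p = 0.00725; quantile 0.022, adjusted p = 0.763). In cluster cells by GFP the values were -0.17 for Rpl22l1 and -0.075 for Rpl22, and neither passed. With the slide as a block, Rpl22 passed among GFP+ cells (0.19, cluster minus endothelial; adjusted p = 0.0742 without and 0.0324 with the block) and between the classes' GFP differences (0.31; 0.0645 without and 0.0308 with it).

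Rpl39, the main copy of Rpl39l, was not called in cluster cells, at 6.70 and 6.66 in GFP+ and 6.75 and 6.70 in GFP- cells (-0.048, adjusted p = 0.451; quantile 0.12). Rps27l, a paralog that p53 induces in human cells, read 5.22 and 5.23 in GFP+ and 5.72 and 5.77 in GFP- endothelial cells (-0.52 ± 0.047, adjusted p = 0.000772; quantile -0.19, adjusted p = 0.0214), and Rps27 differed by -0.36 ± 0.062 (adjusted p = 0.00613; quantile 0.0031). Rpl7l1 was lower (-0.21 ± 0.057, adjusted p = 0.028; quantile -0.21, adjusted p = 0.0266), against -0.48 ± 0.052 for Rpl7 (adjusted p = 0.00126; quantile -0.085). The pseudogene Rps4l, listed as Rps4y2, differed by -0.34 ± 0.074 (adjusted p = 0.0124; quantile -0.13, adjusted p = 0.175), and Rps4x, at 5.95 and 5.98 in GFP+ and 6.58 and 6.53 in GFP- endothelial cells, by -0.58 ± 0.047 (adjusted p = 0.000571; quantile -0.24, adjusted p = 0.012). Whether a paralog differed from its main copy was not tested.

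**Figure D3:**
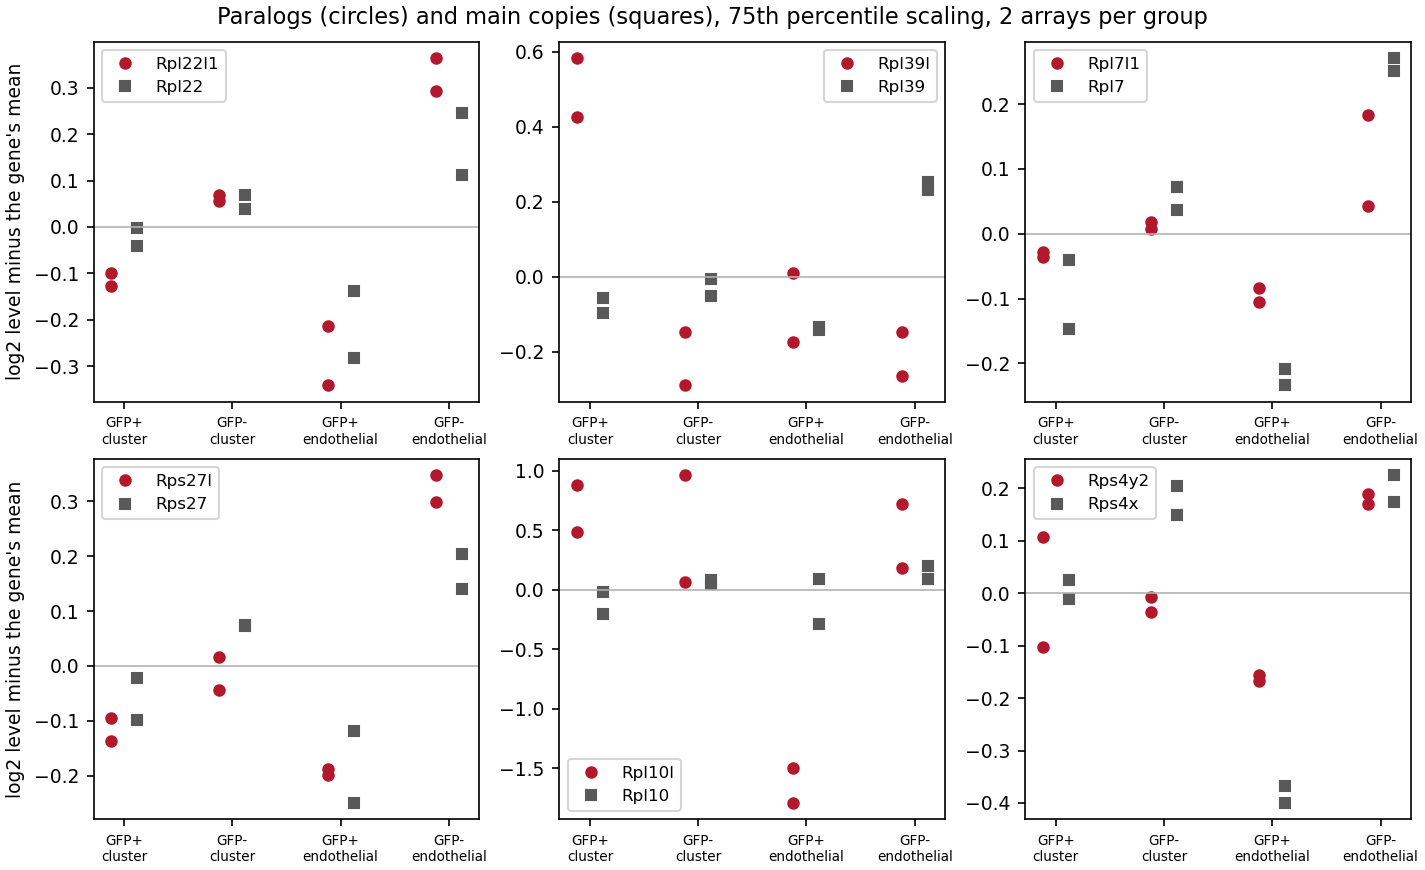
Level of 6 paralogs (circles) and of their main copies (squares) on each of the 8 arrays, scaled by the 75th percentile and drawn as the log2 difference from the gene's own mean over the arrays; 1 point is 1 array, and each panel has its own vertical scale. Rpl39l is highest on both GFP+ cluster arrays and Rpl10l lowest on both GFP+ endothelial arrays.

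Genes that work beside the cytosolic ribosome were counted for the same comparisons. Mitochondrial ribosomal proteins, which build the separate ribosome of that organelle, were lower in GFP+ than in GFP- endothelial cells for 55 of 74 tested genes and higher for 2 (median -0.31), where 33.3% of all genes were lower and 18.2% higher. After quantile normalization 38 were lower and 6 higher (median -0.17), where the shares of all genes were 21.2% and 21.8%. Examples are Mrpl33 (-0.65, quantile -0.33), Mrps14 (-0.64, quantile -0.54) and Mrpl54 (-0.64, quantile -0.44), and the higher ones were Mrpl9 (0.29) and Mrps2 (0.23). In cluster cells by GFP, 7 were lower and 1 higher (median -0.063), against 20.9% and 11.8% of all genes, but 1 was lower and 10 higher after quantile normalization (median 0.041), against 16.7% and 14% of all genes. Among GFP+ cells 23 were higher and 9 lower in cluster than in endothelial cells (quantile 26 and 8), where 26.1% of all genes were higher and 24.2% lower (quantile 21.5% and 26.7%), with Mrps10 (0.50) and Mrpl47 (0.47) among the higher. Among GFP- cells 30 were lower (quantile 12), where 12.4% of all genes were lower (quantile 9.21%). The GFP difference differed between the classes for 38 of the 74, all positive, and for 28 after quantile normalization, where 15.7% and 12.2% of all genes were positive.

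Ribosome assembly and nucleolar factors were higher in cluster than in endothelial cells among GFP+ cells for 33 of 74 tested genes and lower for 1 (median 0.17), where 26.1% of all genes were higher and 24.2% lower. After quantile normalization 31 were higher and 1 lower (median 0.18), where the shares of all genes were 21.5% and 26.7%. Utp14a, a small subunit processing factor, read -0.36 and -0.33 in GFP+ cluster and -1.46 and -1.62 in GFP+ endothelial cells (1.19 ± 0.12, adjusted p = 0.000806; quantile 1.17). Rrp1b (0.96, quantile 0.96) and Wdr12 (0.67, quantile 0.69), a partner of Pes1 in large subunit assembly, were also higher, and Pes1 was the lower gene (-0.31, quantile -0.26). Between GFP+ and GFP- endothelial cells 33 of the 74 were lower and 8 higher (median -0.17; quantile 22 and 14, median -0.068), against 33.3% and 18.2% of all genes (quantile 21.2% and 21.8%), with Utp14a (-0.95), Rrp1b (-0.78) and Gar1 (-0.74) the lowest and Ddx27 (0.48) the highest. Of 18 tested genes of RNA polymerase I and ribosomal DNA transcription, 7 were higher in GFP+ cluster than in GFP+ endothelial cells (6 after quantile normalization), against 26.1% of all genes (quantile 21.5%), led by the transcription factor Mycn (1.22, quantile 1.29), Tcof1 (0.69, quantile 0.76) and Twistnb (0.49, quantile 0.53).

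Of 29 tested initiation factors, 15 were lower and 4 higher in GFP+ than in GFP- endothelial cells, where 33.3% of all genes were lower and 18.2% higher. After quantile normalization 5 were lower and 9 higher, where the shares of all genes were 21.2% and 21.8%. The poly(A) binding protein Pabpc1, whose message also begins with a pyrimidine tract, was lower there (-0.60, quantile -0.28) and higher (0.75, quantile 0.73) in GFP+ cluster than in GFP+ endothelial cells. Of 7 elongation factors, 4 were lower in GFP+ than in GFP- endothelial cells (after quantile normalization 1 was lower and 2 higher), among them Eef1d (-0.48, quantile -0.13). Of 12 genes of the mTOR pathway, 4 were lower and 3 higher in that comparison (quantile 2 and 5), and of 11 p53 response genes 3 were lower and 2 higher (quantile 3 and 2). The shares of both lists lay near those of all genes under the 75th percentile. Pmaip1, a cell death gene, was higher in GFP+ cells of both classes (1.53 in cluster and 1.02 in endothelial cells).

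**Figure D4:**
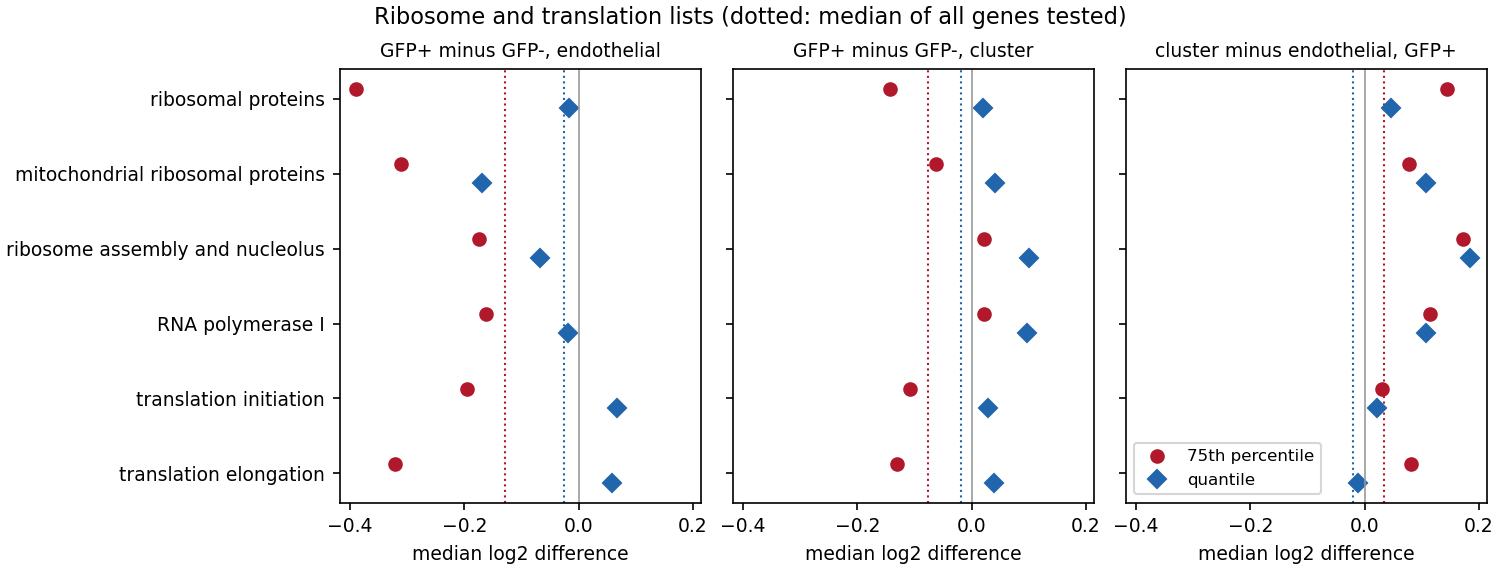
Median log2 difference of 6 gene lists in 3 comparisons, under the 75th percentile and after quantile normalization; 1 marker is 1 list, and dotted lines are the medians of all tested genes. Ribosomal protein genes move from -0.39 to -0.017 between the scalings in endothelial cells by GFP, and mitochondrial ribosomal proteins from -0.31 to -0.17.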

How the data were processed

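RNA from 4 sorted cell groups was measured on 8 one-colour Agilent arrays, 2 per group. Per the file headers, Agilent Feature Extraction 10.10.1.1 wrote the deposited intensity values, of which the processed signal was used; it carries that software's own background correction. A deposited table of the authors' normalized intensity was an alternative: it was on a linear scale, all its columns had a median of 198, and its method is not given in the sources. Each array's 75th percentile was subtracted from the log2 processed signal. Spots of a probe were averaged and flagged spots left out. The array's gene names selected the genes, and for names of other genes the RefSeq table of another assembly was used. Between 54.6% and 63.7% of probes per array were well above background; precision is limited by having 2 arrays per group.

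Comparisons used limma 3.58.1 under R 4.3.3 (with version 1.17.8 of data.table; sequences and figures with Python 3.11.15, pandas 2.3.3, numpy 2.4.6 and matplotlib 3.10.9), in 1 fit over all 8 arrays with 4 residual degrees of freedom and 5 contrasts. Tests were two-sided with Benjamini-Hochberg adjustment over 19537 genes and a threshold of 0.05, and errors are standard errors of the fit. The fit was tested on simulated data. Replicate 1 of every group lay on 1 slide and replicate 2 on another. The replicate deviations of groups correlated at 0.139 to 0.359 over genes, above 0.1 in every pair of groups; same-numbered arrays are therefore paired and the slide was an alternative block.

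The genes named in each contrast are the 6 largest called changes each way, called genes that go against the majority or change call direction between the scalings, Rps19, the stalk genes, Rpsa, paralogs with their main copies and 8 Diamond-Blackfan anaemia genes. Values of some single genes are not reported here. Rps15, Rps25 and others called under both scalings, Rpl21, Rpl26 and the genes named on the scale centred on the group itself were added after their values were seen. Members and lists were chosen with earlier results of these data known. Alternatives were quantile normalization, the array median of detected probes, normexp background correction (offset 50), the authors' table, the slide block, within-slide differences, averaging all probes of a gene, no or a stricter filter on dim probes, and each array left out.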

Additional observations from a re-analysis of the deposited data

Results flagged for a closer look

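The difference by GFP differed between cluster and endothelial cells for 30 of the 83 genes by limma's interaction term (75th percentile, GFP difference in cluster cells minus that in endothelial cells, log2), where 15.7% of all genes were positive. Among the genes named in the report the values were 0.60 for Rpl39l, 0.60 for Rps15a, 0.55 for Rpl26l1, 0.49 for Rpl14, 0.49 for Rpl4, 0.48 for Rps25, 0.45 for Rps15, 0.43 for Rpl22l1, 0.43 for Rpl26 and 0.43 for Rpl30. They were 0.41 for Rps4x, 0.41 for Rps27l, 0.38 for Rps7, 0.37 for Rpl35a, 0.37 for Rps4y2, 0.36 for Rps19, 0.36 for Rpl23a, 0.33 for Rpl39, 0.33 for Rpl7 and 0.26 for Rpl17. Rpl10l was called as well, but was well above background on neither GFP+ endothelial array, so no size is given. Rpl10l, Rps15a, Rpl26l1, Rpl14, Rpl30, Rpl26 and Rpl22l1 were also called after quantile normalization, where 12.2% of all genes were positive.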

How the results depend on the processing

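Scaling decided most results. With quantile normalization and in the authors' table alike, the ribosomal protein genes called were 2 higher and 0 lower for GFP+ against GFP- cluster cells, 2 higher and 14 lower for GFP+ against GFP- endothelial cells, 11 higher and 1 lower for cluster against endothelial cells among GFP+ cells, 1 lower among GFP- cells, and 7 positive for the difference between classes. Their medians were 0.019 (0.021 from the authors), -0.017 (-0.018), 0.045 (0.045), -0.027 (-0.027) and 0.064 (0.076). In the endothelial comparison the sign turned with quantile normalization for 34 of the 83 genes, 25 of them called under the 75th percentile. Among the named genes called under either scaling it turned for Rpl12 (0.0090 and, by the authors' values, 0.0090), Rpl6 (0.20, 0.20), Rps15 (0.071, 0.070), Rps29 (0.031, 0.031), Rps6 (0.16, 0.15), Rps9 (0.10, 0.10), Rpl13 (0.19, 0.19), Rpl3 (0.33, 0.32), Rpl22 (0.022, 0.012), Rpl39 (0.011, 0.0067), Rplp1 (0.0068, 0.0069), Rps26 (0.055, 0.055), Rps27 (0.0031, 0.0037), Rps7 (0.040, 0.038) and Rpsa (0.074, 0.074). Centred on their own median, a setting chosen after the data were seen, the genes called were 2 and 0, 9 and 5, 5 and 1, 0 lower among GFP- cells (limma; 4 at an unadjusted p under 0.05) and 1 positive. Normexp called 0 genes in every comparison by limma, also at an unadjusted p under 0.05; the 1st percentile of GFP- endothelial replicate 2 was then 9.42 (log2), against 5.82 to 6.23 on the other arrays. Its medians were -0.13, -0.096, 0.16, 0.20 and -0.040. Normexp turned the sign in endothelial cells of Rpl13 (0.073), Rpl6 (0.17), Rps15 (0.16), Rps29 (0.029), Rps6 (0.14), Rps9 (0.077), Rplp1 (0.0080), Rps26 (0.018), Rps7 (0.022) and Rpsa (0.045), among GFP- cells of Rpl17 (0.023), Rpl22l1 (0.071), Rpl26 (0.035), Rpl26l1 (0.016), Rpl39 (0.084), Rpl7 (0.11), Rps15a (0.030), Rps19 (0.015) and Rps25 (0.14), and between classes of Rpl17 (-0.12). The cause was not tested. Without a filter on dim probes, 0 genes were lower in cluster cells by GFP (13 at an unadjusted p under 0.05), 7 higher among GFP+ cells, 2 lower among GFP- cells and 5 positive between classes. The mean of probes turned Rpl7 between classes (-0.14) and Rps15a among GFP+ cells (-0.035). Within slides the cluster median was -0.11 on the slide of replicate 2 and the median between classes 0.31 on that of replicate 1. Leaving out 1 array, with the lone array of that group assumed to vary like the others, gave 0 to 8 lower genes and 1 higher gene with medians of -0.17 to -0.11 in cluster cells, 45 to 73 lower with -0.47 to -0.32 in endothelial cells, 7 to 30 higher and 0 to 1 lower with 0.054 to 0.23 among GFP+ cells, 0 to 14 lower with -0.12 to -0.090 among GFP- cells, and 11 to 28 positive with 0.19 to 0.36 between classes. The slide as a replicate block called 1 higher and 10 lower, 76 lower, 24 higher, 15 lower and 35 positive genes in the 5 comparisons, and among named genes changed no call beyond those given in the report and those of Rpl15 in endothelial cells (adjusted p = 0.0169, limma) and Rpl12 between classes (adjusted p = 0.0443, limma), which passed with it.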

Other observations

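One of the 4 probes of Rpl7 read 3.42 (log2, against the 75th percentile) on GFP+ cluster replicate 2 and between 6.51 and 7.11 on the other 7 arrays, while another Rpl7 probe read 7.08 on that same array. The spot was not flagged by the scanner software. The brightest probe, which stands for Rpl7 in the comparisons, is neither of these and read 7.08 and 7.19 in GFP+ cluster cells, so the low spot enters only the mean of the gene's probes.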
